A study of Mus musculus with 6 samples.

Results

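Transcripts of the insulin-like growth factor (Igf) binding proteins were followed in the embryonic mouse mesonephros, the tissue of the Wolffian duct and its mesenchyme, from which the male forms its epididymis. The members were the rows of the deposited gene table named Igfbp2, Igfbp3, Igfbp4, Igfbp5, Igfbp6 and Igfbp7, which makes 6 genes of 14366, and all 6 passed the filter on low values. The rule that picks them uses the gene name and no measured value. RNA-seq was carried out on 6 mesonephroi of male embryos at embryonic day 16.5, and the dissected piece kept the region of the mesonephric tubules. The 3 Gata2cKO samples had the genotype Osr2Cre+;Gata2-flox/flox, in which both alleles of the transcription factor gene Gata2 could be removed by a recombinase driven from Osr2, a gene of the mesenchyme. The 3 control samples had the genotype Osr2Cre+;Gata2-flox/+, so they carried the same recombinase and 1 allele that it could remove. The recombinase acts in cells that express it, so other cells of the tissue keep Gata2. Nothing in the labels ties a sample to an embryo or a litter of its own, and p-values therefore measure only the spread between these samples, which may be technical.

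Igf binding proteins are secreted proteins that hold Igf1 and Igf2 outside the cell. They prolong the life of the growth factors, keep them from the receptor Igf1r, or release them near it when proteases cut the binding protein. Igf1 and Igf2 are growth factors of the embryo, and the binding proteins differ in affinity and in their attachment to matrix and cell surfaces. Igfbp7 is a distant relative that binds Igfs only weakly and also binds insulin.

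All values are TPM, which corrects transcript abundance for the length of the gene and the size of the library and can be set side by side between genes. Since TPM discards sequencing depth, that depth is unknown here and the replicate spread is the measure of error. A log2 fold change is the difference in mean log2(TPM + 1), Gata2cKO less control, and adjusted p-values come from limma over 12300 tested genes with a threshold of 0.05. Because whole pieces of tissue were measured, fewer cells of a type and less RNA per cell cannot be told apart. The targeted gene, Gata2, stood at 431, 530 and 416 TPM in Gata2cKO and 384, 464 and 546 TPM in controls (limma adjusted p = 0.968). A level summed over the gene cannot tell a transcript that lacks the floxed stretch from a whole one. The labels of the libraries are therefore not checked by it.

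Igfbp2 and Igfbp5 rose in the Gata2cKO mesonephroi, each by about 1.3-fold. Igfbp3 had the largest difference in the other direction, a fold of 0.650, but did not pass the threshold. Igfbp4, Igfbp6 and Igfbp7 did not pass either. Of the 6 members 2 rose and 0 fell, where 7.47% of the 12300 tested genes passed (5.73% higher and 1.74% lower). At an unadjusted p under 0.05 limma gave 3 members higher and 1 lower. The share of all tested genes at that unadjusted cut-off was not counted. Counts at that cut-off, here and below, therefore have no background beside them, and the 7.47% does not serve as one. In the authors' deposited table, where 13.3% of the listed genes had an adjusted p under 0.05, Igfbp2 and Igfbp5 were higher and Igfbp3 was lower at that threshold. With median-of-ratios scaling of the TPM 54.9% of all changed genes were higher, against 76.7% in the values as deposited, and Igfbp2 was then the only member past the threshold.

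Igfbp2 and Igfbp5 are neighbours on chromosome 1 of GRCm38, with 5457 bases and 0 protein-coding genes between them. Igfbp2 spans 72824503 to 72852474 on the plus strand and Igfbp5 spans 72857932 to 72874884 on the minus strand, so that their 3' ends face each other. Igfbp3 lies on chromosome 11 from 7206086 to 7213923 on the minus strand, and Igfbp4 lies elsewhere on the same chromosome from 99041244 to 99054392 on the plus strand. Igfbp6 spans 102144362 to 102149511 on chromosome 15 and Igfbp7 spans 77349240 to 77408041 on chromosome 5, on the plus and the minus strand in that order. The annotation gives 4 exons to the longest coding transcript of Igfbp2, Igfbp4, Igfbp5 and Igfbp6, 5 to that of Igfbp3 and 6 to that of Igfbp7. Igfbp7 overlaps Polr2b and an antisense gene on the other strand. No source used here says whether the libraries kept strand, so reads of Igfbp7 and of these genes cannot be told apart where they overlap.

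The sequences just before the starts of the members whose groups lay apart are shown because the gene targeted in the Gata2cKO genotype encodes a factor that binds GATA motifs. They are the 250 bases upstream of the RefSeq start (GRCm38.p6), read 5' to 3' on the gene's own strand. RefSeq starts can differ from the ends of the spans above, and distances are counted from the RefSeq start. The Igfbp5 window reaches 72874866, inside the span of Igfbp5, and the Igfbp6 window ends at 102144185, short of the span of Igfbp6. Capitals mark matches, on either strand, to the core motif GATA, to the TATA box letters TATAAA or to the GC box letters GGGCGG.
Igfbp2, chr1:72824230-72824479, plus strand: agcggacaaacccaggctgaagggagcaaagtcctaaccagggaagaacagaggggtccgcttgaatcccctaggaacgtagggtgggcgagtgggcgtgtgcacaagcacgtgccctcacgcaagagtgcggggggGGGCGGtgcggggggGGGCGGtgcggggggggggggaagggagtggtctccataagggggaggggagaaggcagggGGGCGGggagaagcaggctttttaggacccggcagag
Igfbp5, chr1:72874866-72875115, minus strand: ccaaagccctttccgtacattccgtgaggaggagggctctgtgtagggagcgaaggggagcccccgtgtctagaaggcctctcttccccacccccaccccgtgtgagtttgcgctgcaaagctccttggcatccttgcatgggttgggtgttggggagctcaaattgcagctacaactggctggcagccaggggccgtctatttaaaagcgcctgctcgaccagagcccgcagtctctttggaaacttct
Igfbp3, chr11:7213924-7214173, minus strand: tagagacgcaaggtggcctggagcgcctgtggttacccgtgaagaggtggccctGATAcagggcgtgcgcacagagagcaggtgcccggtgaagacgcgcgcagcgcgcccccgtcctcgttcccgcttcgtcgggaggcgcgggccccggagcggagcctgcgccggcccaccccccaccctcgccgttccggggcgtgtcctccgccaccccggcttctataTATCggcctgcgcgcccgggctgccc
The window of Igfbp2 held 3 GC boxes and 0 GATA letters, that of Igfbp5 held 0 matches to any of these motifs, and that of Igfbp3 held GATA on both strands, at 196 and 26 bases before the start. GATA on either strand was found in 53.6% of 32851 RefSeq windows of the same length, TATAAA in 12.4% and GGGCGG in 32.7%. The longer forms AGATAA together with AGATAG, as well as TGATAA together with TGATAG, each of which contains GATA, were found in 26.5% of windows and, among the 6 members, in that of Igfbp6. A stretch of 70 bases of the Igfbp6 window, with these matches in capitals beside a further GATA match, is given for comparison.
Igfbp6, chr15:102144091-102144160, plus strand: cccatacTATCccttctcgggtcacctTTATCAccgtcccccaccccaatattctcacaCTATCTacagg
These matches describe letters in short windows and are not evidence of binding.

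Igfbp5, which attaches to the extracellular matrix and binds both Igfs, was the most abundant member in every library. It stood at 1762, 1679.5 and 1520.2 TPM in Gata2cKO replicates 1, 2 and 3 and at 1203, 1301 and 1285 TPM in control replicates 1, 2 and 3. The groups did not overlap, and the lowest Gata2cKO library lay 219 TPM above the highest control. Means were 1654 ± 123 TPM in Gata2cKO and 1263 ± 52.7 TPM in controls (SD, n = 3 each). That is a 1.31-fold difference (log2 fold change 0.39, SE 0.092, limma adjusted p = 0.0464). Of the 6 fits that each left out a library, the call held in 1, without control replicate 1 (adjusted p = 0.0345), and the adjusted p reached 0.186 without Gata2cKO replicate 1. It was also lost with median-of-ratios scaling (adjusted p = 0.0773), upper-quartile scaling (0.0559), no filter on low values (0.0603) and mitochondrial genes left out of the total (0.0612), with log2 fold changes of 0.32 to 0.39.

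Igfbp2, which carries an integrin-binding motif and binds Igf2 well, came after Igfbp5 and Igfbp4 by mean level in both groups. It had 344, 353 and 338 TPM in the Gata2cKO libraries and 281, 254 and 259 TPM in the control libraries. The groups were 57.1 TPM apart at their nearest libraries. Igfbp2 had the smallest spread of the members among Gata2cKO libraries, with a coefficient of variation of 2.10%, and one of 5.50% among controls. Means were 345 ± 7.24 TPM in Gata2cKO and 265 ± 14.6 TPM in controls (SD, n = 3 each). That is a 1.30-fold difference (log2 fold change 0.38, SE 0.077, limma adjusted p = 0.0309). For Igfbp2 the call held under both scalings (adjusted p = 0.0490 and 0.0484) and not with mitochondrial genes left out of the total (0.0692). In the 6 removals of a library it held once, without control replicate 1 (adjusted p = 0.0108), and the highest adjusted p was 0.124, without Gata2cKO replicate 1.

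Igfbp3, known as the main carrier of Igfs in serum and as a protein that limits cell growth, was lower in each Gata2cKO library than in each control without passing the threshold. It had 134, 125 and 152 TPM in Gata2cKO replicates 1 to 3 and 157, 212 and 263 TPM in control replicates 1 to 3. The nearest libraries of the groups were 4.61 TPM apart, and the controls spread widely, with a coefficient of variation of 25.1% against 10.4% in Gata2cKO. Means were 137 ± 14.2 TPM in Gata2cKO and 211 ± 52.8 TPM in controls (SD, n = 3 each). Igfbp3 differed by a log2 fold change of -0.59 with an SE of 0.18 (limma adjusted p = 0.0847). Its 95% interval, not adjusted for the number of genes, ran from -1.01 to -0.17. Igfbp3 passed the threshold without control replicate 1 (log2 fold change -0.79, adjusted p = 0.0103) and with mitochondrial genes left out of the total (adjusted p = 0.0456). In the authors' deposited table its log2 fold change was -0.68 with an adjusted p of 0.000643.

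Igfbp4, an inhibitory binding protein that the protease Pappa cuts, was the second most abundant member and showed overlapping groups. It had 931, 1027 and 978 TPM in the Gata2cKO libraries and 828, 1056 and 1169 TPM in the control libraries. Both the lowest and the highest value belonged to controls. Its log2 fold change was -0.043 with an SE of 0.13 (limma adjusted p = 0.864), with a 95% interval from -0.35 to 0.27, and it was 0.064 without control replicate 3.

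Igfbp6, which prefers Igf2 over Igf1, had 143, 168 and 162 TPM in Gata2cKO replicates 1 to 3 and 124, 149 and 155 TPM in control replicates 1 to 3. The groups overlapped (log2 fold change 0.15, 95% interval -0.11 to 0.40, limma adjusted p = 0.420). Igfbp7 had 31.0, 44.1 and 34.2 TPM in the Gata2cKO libraries and 22.0, 27.2 and 31.7 TPM in the control libraries. Its groups overlapped by 0.685 TPM, through Gata2cKO replicate 1 and control replicate 3. The log2 fold change of Igfbp7 was 0.42, close in size to those of Igfbp2 and Igfbp5, with a wider 95% interval from 0.035 to 0.80 (SE 0.17, limma adjusted p = 0.154).

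**Figure D1:**
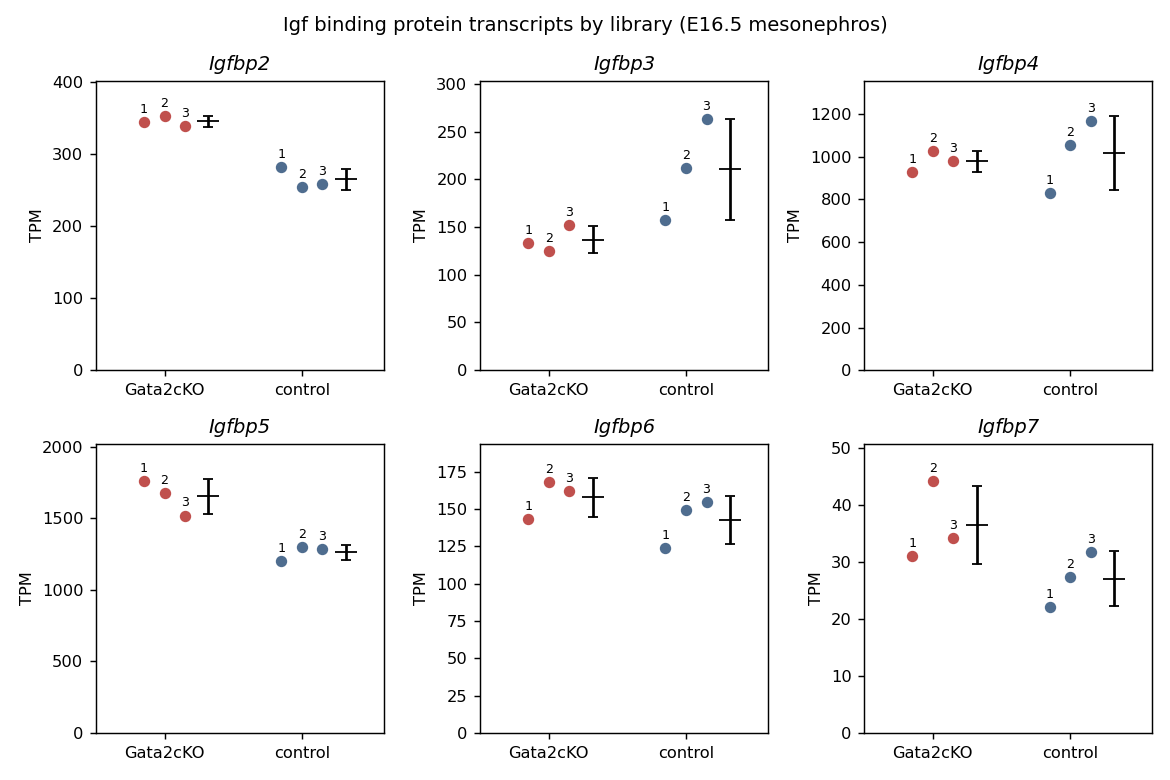
TPM of each Igf binding protein (vertical axis, starting at 0) in the 3 Gata2cKO and the 3 control libraries, numbered by replicate, with the group mean and SD beside the points. The groups lie apart for Igfbp2, Igfbp5 and Igfbp3 and overlap for Igfbp4, Igfbp6 and Igfbp7.

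In all, the groups did not overlap for 3 of the 6 members, 2 of them higher and 1 lower in Gata2cKO, where 33.9% of all tested genes showed such an arrangement. Among controls, replicate 1 was the lowest library for 5 of the 6 members, and Igfbp2 was the exception, with its highest control value there. That library also stood apart in the share of mitochondrially encoded transcripts, which was 21.9% of the TPM against 16.3% and 14.2% in control replicates 2 and 3 and 13.2% to 15.2% in Gata2cKO. Its summed globin TPM was 18277, against 6868 and 7818 in the other controls and 10519.9 to 13820.5 in Gata2cKO. Whether these shares take part in the differences of the members was not tested beyond the scalings given above.

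The order of levels was the same in both groups at its top and bottom. In Gata2cKO it ran Igfbp5, Igfbp4, Igfbp2, Igfbp6, Igfbp3 and Igfbp7, and in controls Igfbp5, Igfbp4, Igfbp2, Igfbp3, Igfbp6 and Igfbp7. By range, the neighbours Igfbp6 and Igfbp3 overlapped in Gata2cKO libraries, although Igfbp6 was higher within each of the 3. The neighbours Igfbp2 and Igfbp3 overlapped in controls, where Igfbp2 was higher in 2 of the 3 libraries. Each other pair of neighbours was apart in range within its group. The ratio of Igfbp6 to Igfbp3 was 1.07, 1.35 and 1.06 in Gata2cKO replicates 1 to 3 and 0.790, 0.702 and 0.588 in control replicates 1 to 3, so the order of these genes within a library differed between the groups. The ratio of Igfbp2 to Igfbp3 averaged 2.54 ± 0.306 in Gata2cKO and 1.32 ± 0.418 in controls (SD, n = 3 each). Ratios within a library show unequal change and not which gene moved.

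Summed over the 6 members, the level was 3344, 3396 and 3185 TPM in Gata2cKO replicates 1 to 3 and 2616, 2999.7 and 3162 TPM in control replicates 1 to 3. Igfbp5 supplied 50.0 ± 2.52% of that sum in Gata2cKO and 43.3 ± 2.67% in controls (SD, n = 3 each). Igfbp4 supplied 29.6 ± 1.54% in Gata2cKO and 34.6 ± 2.71% in controls, and Igfbp3 4.15 ± 0.574% in Gata2cKO and 7.13 ± 1.15% in controls. The share of Igfbp2 was 10.4 ± 0.179% in Gata2cKO and 9.14 ± 1.41% in controls, with control replicate 1, at 10.8%, above all Gata2cKO libraries. Igfbp6 held 4.77 ± 0.427% in Gata2cKO and 4.87 ± 0.114% in controls, and Igfbp7 1.10 ± 0.188% in Gata2cKO and 0.918 ± 0.0800% in controls. These shares are a description with no test, and a rise in the share of the most abundant member lowers the others.

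**Figure D2:**
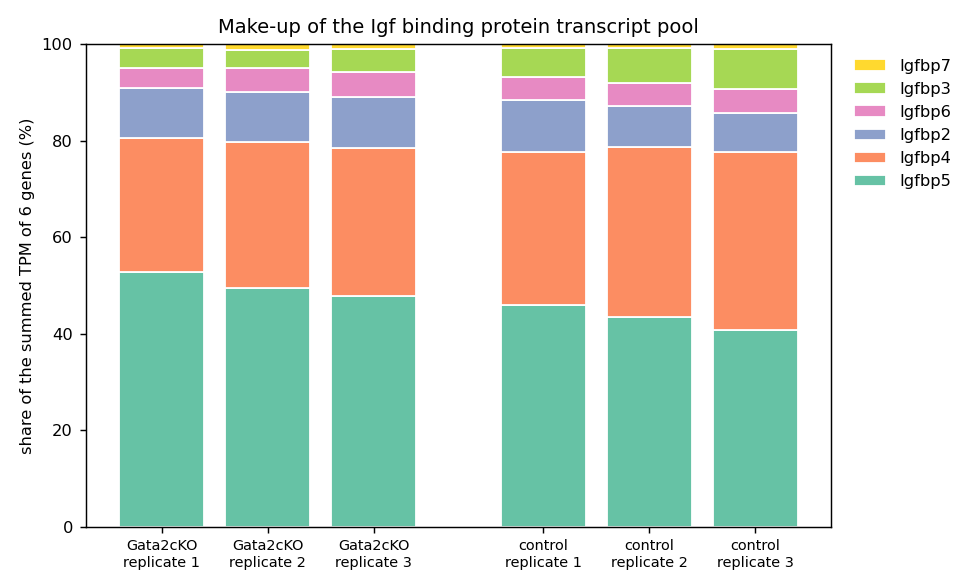
Share of each gene in the summed TPM of the 6 Igf binding proteins (vertical axis, percent) in each library. The segment of Igfbp5 covers 47.7% to 52.7% in Gata2cKO libraries and 40.7% to 46.0% in control libraries, and that of Igfbp3 3.67% to 4.79% in Gata2cKO and a larger share, up to 8.31%, in controls.

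Among the ligands that these proteins bind, Igf1 rose and Igf2 did not pass the threshold. Igf1 had 38.9, 40.3 and 40.02 TPM in Gata2cKO replicates 1 to 3 and 22.8, 23.4 and 22.6 TPM in control replicates 1 to 3, groups that were far apart. The 1.73-fold difference (log2 fold change 0.77, SE 0.070, limma adjusted p = 0.00375) held in all 6 removals of a library. Igf2, the more abundant ligand, averaged 2519.7 ± 148 TPM in Gata2cKO and 2131 ± 103 TPM in controls (SD, n = 3 each; log2 fold change 0.24, limma adjusted p = 0.142). Its groups did not overlap, as for 33.9% of all tested genes, and each Gata2cKO library was at least 116 TPM above each control. The 95% interval of Igf2, not adjusted for the number of genes, ran from 0.028 to 0.45. Igf2 falls outside the rule for named genes and was chosen after its values were seen, as a partner of the members. The summed TPM of the 6 binding proteins was 1.39, 1.26 and 1.23 times that of Igf1 and Igf2 together in Gata2cKO replicates 1 to 3 and 1.27, 1.41 and 1.39 times in control replicates 1 to 3. Those ratios overlapped between the groups.

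Of the 4 receptors 0 rose and 1 fell, where 5.73% of all tested genes rose and 1.74% fell. Insrr, a receptor related to that for insulin that has no known peptide ligand, had 1.06, 1.52 and 0.985 TPM in Gata2cKO and 5.05, 5.05 and 4.88 TPM in controls (log2 fold change -1.46, SE 0.11, limma adjusted p = 0.00198), and the call held in all 6 removals of a library. At such low levels the 1 added to TPM makes a log2 fold change smaller in size. That of Insrr was -2.01 with a pseudocount of 0.1 and -2.13 in the authors' deposited table. Igf1r, the signalling receptor for both ligands, stood at 6.18 ± 0.783 TPM in Gata2cKO and 7.34 ± 1.17 TPM in controls (SD, n = 3 each; limma adjusted p = 0.330). Igf2r, which takes up Igf2 for breakdown, stood at 50.8 ± 2.93 TPM in Gata2cKO and 45.6 ± 2.96 TPM in controls (limma adjusted p = 0.284). Both receptors were chosen after their values were seen, because they receive the ligands. None of the 6 tested receptor adaptors passed by limma (the most abundant, Shc1, had an adjusted p of 0.144), while at an unadjusted p under 0.05 the same test gave 2 higher and 2 lower. With median-of-ratios scaling 0 adaptors rose and 1 fell.

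Of the 10 genes written as proteases that cut Igf binding proteins, 6 were tested. The matrix metalloprotease Mmp7 was near the floor and reached the filter through the Gata2cKO libraries only, so that it could enter the test only by differing, and its values are given as a description. It had 1.04, 1.14 and 1.26 TPM in Gata2cKO and 0.388, 0.607 and 0.707 TPM in controls, groups that did not overlap. In the authors' deposited table Mmp7 had a log2 fold change of 0.93 with an adjusted p of 0.372. None of the other 5 proteases passed by limma, where 7.47% of all tested genes passed. At an unadjusted p under 0.05, for which no share of all tested genes was counted, 2 of these 5 proteases were higher. Htra1, a secreted serine protease that has an Igfbp domain of its own, was at 10.1 ± 1.14 TPM in Gata2cKO and 7.22 ± 1.51 TPM in controls and did not pass (limma adjusted p = 0.103; named after its values were seen). Of the stanniocalcins, which inhibit the proteases Pappa and Pappa2, 0 of 2 passed by limma (1 was higher at an unadjusted p under 0.05). The more abundant, Stc1, stood at 33.4 ± 2.35 TPM in Gata2cKO and 25.9 ± 3.76 TPM in controls (limma adjusted p = 0.0992, and 0.0371 without control replicate 1).

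Other proteins share the Igfbp domain without being high-affinity carriers. Of 7 tested genes of this kind 2 rose and 0 fell. Nov, a matricellular protein gene, had 8.87, 9.68 and 10.7 TPM in Gata2cKO and 0.697, 2.25 and 1.85 TPM in controls (log2 fold change 2.10, SE 0.23, limma adjusted p = 0.00739). Its call held in all 6 removals of a library. The log2 fold change of Nov was 2.67 with a pseudocount of 0.1 and 2.51 in the authors' deposited table. Esm1, an endothelial proteoglycan gene, stood at 3.59 ± 0.446 TPM in Gata2cKO and 2.32 ± 0.166 TPM in controls (SD, n = 3 each; limma adjusted p = 0.0384). Among the 6 removals its call held in 1, without control replicate 1, and the adjusted p was 0.147 without Gata2cKO replicate 1. The Esm1 call was also lost with median-of-ratios scaling (adjusted p = 0.0614), upper-quartile scaling (0.0667) and mitochondrial genes left out of the total (0.0764). In the authors' deposited table Esm1 had an adjusted p of 0.263. Cyr61, a matricellular gene named after its values were seen, had 140, 174 and 286 TPM in Gata2cKO and 256, 612 and 595 TPM in controls. The groups of Cyr61 overlapped, as control replicate 1 was below Gata2cKO replicate 3 (log2 fold change -1.24, limma adjusted p = 0.0847, and 0.0108 without control replicate 1). The authors' deposited table gives Cyr61 a log2 fold change of -1.34 with an adjusted p of 0.0456. None of the 3 genes of the Igf2 mRNA binding proteins, an unrelated family with a similar name, passed by limma (at an unadjusted p under 0.05, 1 was higher and 1 lower). Igf2bp2, the most abundant of them, stood at 16.9 ± 1.45 TPM in Gata2cKO and 20.7 ± 0.652 TPM in controls (limma adjusted p = 0.0893, and 0.0409 and 0.0480 with median-of-ratios and upper-quartile scaling). Its log2 fold change in the authors' deposited table was -0.35 with an adjusted p of 0.00116. With Mmp7 set aside, 4 of the 29 other tested genes of the axis passed, 3 higher and 1 lower. Over all 12300 tested genes 7.47% passed, 5.73% higher and 1.74% lower. With Mmp7 included, 5 of 30 passed, and that count was 10 without control replicate 1 and 3 in each of the other removals. With median-of-ratios scaling 2 passed higher and 3 lower.

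**Figure D3:**
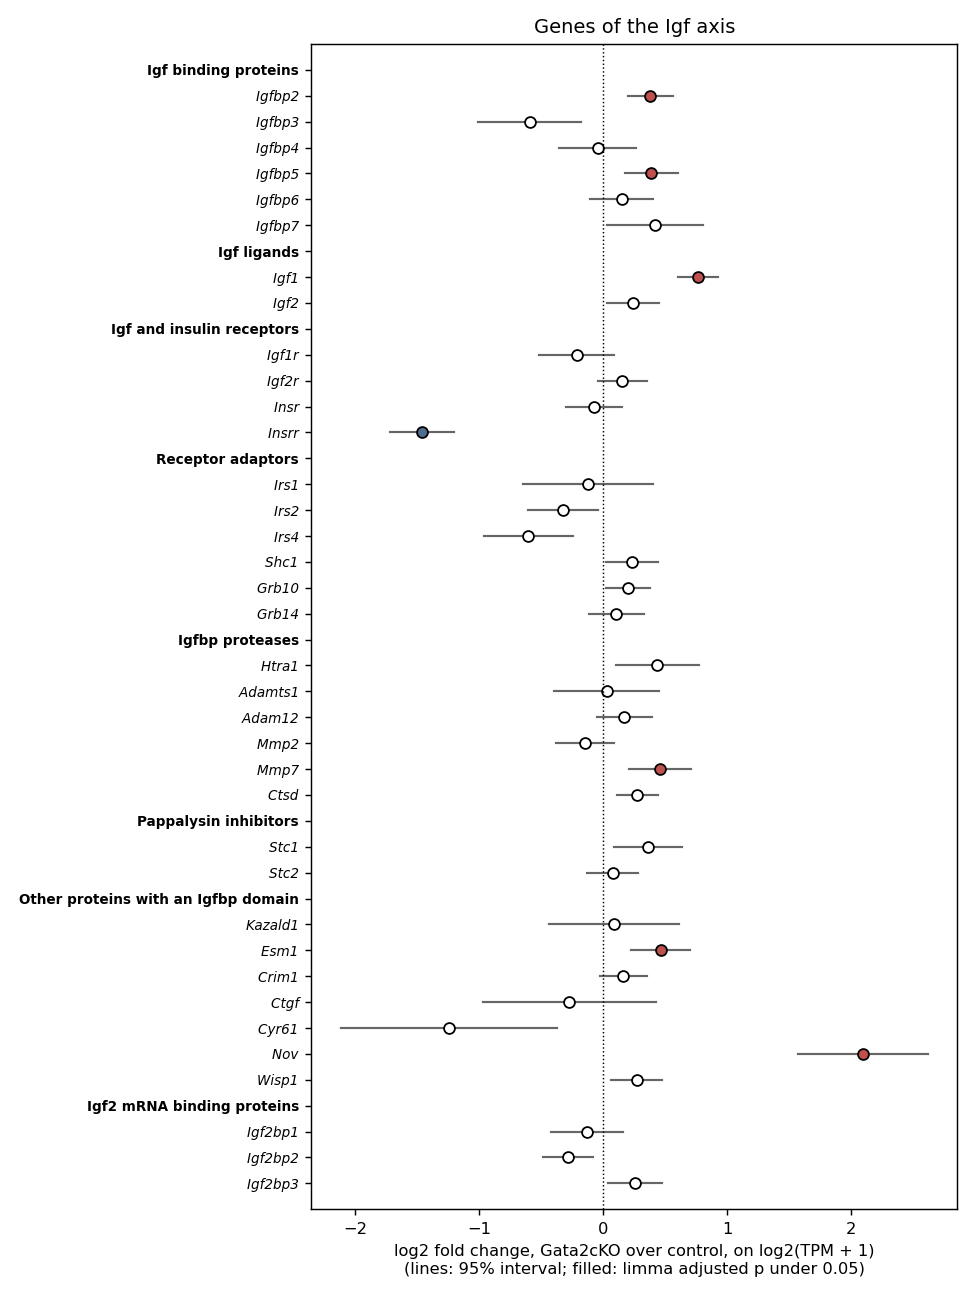
Log2 fold change of Gata2cKO over control with its 95% interval (horizontal axis, on log2(TPM + 1)) for each tested gene of the Igf axis, grouped by role. Filled points had a limma adjusted p under 0.05, and they are Igfbp2, Igfbp5, Igf1, Esm1, Nov and Mmp7, which reached the filter through Gata2cKO libraries only, to the right of 0 and Insrr to the left.

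The genes most like Igfbp2 in pattern, among 8981 genes with a mean of 5 TPM or more, were Dscr3, Lrrc41 and Pcyt1a. Predicted genes, named Gm with digits or with a name ending in Rik, were left out of the 8981. The measure was the root mean square difference of centred log2(TPM + 1) over the 6 libraries, which was 0.0251, 0.0323 and 0.0330 for these genes. Those most like Igfbp5 were Cdo1, Ftsj2 and Lamc1, with differences of 0.0356, 0.0407 and 0.0413. Dscr3 had 14.7, 15.3 and 15.1 TPM in Gata2cKO and 11.8, 10.9 and 11.3 TPM in controls, with its highest control value in replicate 1 as in Igfbp2. Cdo1 had 73.7, 73.02 and 67.0 TPM in Gata2cKO and 51.3, 57.7 and 53.4 TPM in controls, with its lowest Gata2cKO value in replicate 3 as in Igfbp5. The likeness is a description over 6 libraries.

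The tissue expressed markers of mesenchyme, duct epithelium, mesothelium and endothelium, and the summed markers of several cell types differed between the groups. The counts of markers below stand beside 5.73% of all tested genes that rose and 1.74% that fell. Of the 16 mesenchymal genes 2 rose and 3 fell, with Tcf21 the lowest p (limma adjusted p = 0.00856) and Col1a1 the most abundant. Tcf21 was among the 3 that fell, with a mean of 449 TPM in Gata2cKO and 766 TPM in controls. The sum of the 16 was 9362 to 11707 TPM in Gata2cKO and 8218 to 10229 TPM in controls. Most of it came from Col1a1, Col3a1 and Col1a2, with means of 4458, 2107 and 1450 TPM in Gata2cKO, so it does not show the falls. Of 13 tested endothelial markers 3 rose and 0 fell, with Esam the lowest p (limma adjusted p = 0.0112) and Sox18 the most abundant, and the 14 listed summed to 573 to 695 TPM in Gata2cKO and 411 to 549 TPM in controls. Of 9 mesothelial markers 4 rose, with Lrrn4 the lowest p (0.00340) and Upk3b the most abundant, and they summed to 602 to 697 TPM in Gata2cKO and 376 to 484 TPM in controls. Of 13 tested markers of duct epithelium 2 rose, with Cldn4 the lowest p (0.0113) and Krt18 the most abundant, and the 14 listed summed to 1386 to 1456 TPM in Gata2cKO and 1066 to 1252 TPM in controls.

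Of 8 tested smooth muscle markers 3 fell, with Myh11 the lowest p (limma adjusted p = 0.0114) and Myl9 the most abundant, and the 10 listed summed to 811 to 895 TPM in Gata2cKO and 1042 to 1156 TPM in controls. Acta2 (196 against 315 TPM) and Myl9 (257 against 355 TPM) had the largest differences in TPM. Des had a higher mean in Gata2cKO (190 against 181 TPM) and did not pass. Each other tested smooth muscle marker had a lower mean there. Lmod1, left out by the filter, was higher in Gata2cKO (0.702 against 0.306 TPM). Of 5 mast cell markers 3 rose, with Tpsb2 the lowest p (0.00261) and the most abundant, and they summed to 272 to 297 TPM in Gata2cKO and 97.0 to 139.8 TPM in controls. At an unadjusted p under 0.05 limma gave 4 of these markers higher and 1 lower. The lower one was Kit, at 2.14, 2.49 and 2.12 TPM in Gata2cKO and 3.02, 2.66 and 3.01 TPM in controls. Of 9 tested macrophage markers 2 rose, with Lyz2 the lowest p (0.0127) and C1qa the most abundant, and the 10 listed summed to 478 to 537 TPM in Gata2cKO and 367 to 456 TPM in controls. Cd68 (46.0 against 52.9 TPM) and Aif1 (7.43 against 8.59 TPM) had lower means in Gata2cKO than in controls, and neither passed. Each other tested macrophage marker had a higher mean in Gata2cKO. Adgre1 reached the filter through the Gata2cKO libraries only and did not pass. None of the 7 tested red cell markers passed by limma (2 were higher at an unadjusted p under 0.05). Hbb-bt had the lowest p (adjusted p = 0.123), Hba-a1 was the most abundant, and the 8 listed summed to 10529.4 to 13834 TPM in Gata2cKO and 6873 to 18288 TPM in controls. Of 4 tested testis genes (Sox9 the most abundant, Amh the lowest p) and the 1 tested skeletal muscle gene (Tnnt3) 0 passed by limma, and 0 had an unadjusted p under 0.05. Their listed sums were 32.2 to 41.5 and 2.04 to 2.54 TPM in Gata2cKO and 35.5 to 46.8 and 1.92 to 3.998 TPM in controls. Of all the listed markers 1, in the skeletal muscle list, was at 0 in a library. These counts moved with the libraries included. Over the 6 removals 0 to 4 endothelial, 1 to 4 mesothelial, 0 to 6 duct epithelium, 0 to 2 mesenchymal, 0 to 2 macrophage, 2 to 4 mast cell and 0 to 4 red cell markers rose, each with its highest count without control replicate 1. Over the same removals 1 to 3 mesenchymal, 1 to 3 smooth muscle and 0 to 1 duct epithelium markers fell. With median-of-ratios scaling 0 mesenchymal, 1 macrophage and 3 mesothelial markers rose, and the other counts of markers that rose or fell were as given. The part of these cell types in the differences of Igfbp2 and Igfbp5 was not tested.

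**Figure D4:**
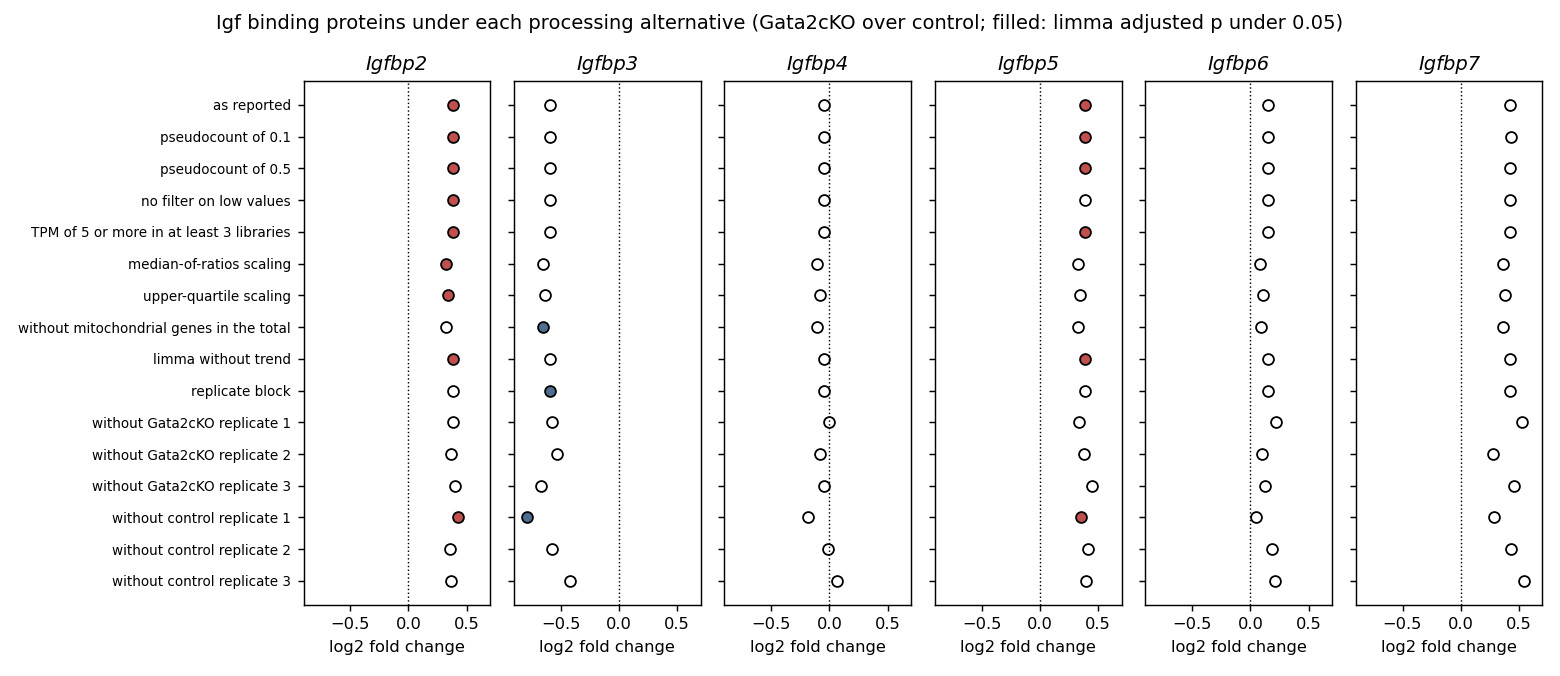
Log2 fold change of each Igf binding protein (horizontal axis, Gata2cKO over control) as reported and under each of 15 processing alternatives (rows). Filled points had a limma adjusted p under 0.05, and Igfbp2 stays between 0.32 and 0.43 and Igfbp5 between 0.32 and 0.45 over the alternatives while their calls come and go.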

How the data were processed

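RNA-seq of mesonephroi of male mouse embryos gave 6 libraries, 3 labelled Gata2cKO and 3 labelled control. Per the labels' protocols, RNA was isolated with a PicoPure kit, selected with poly-T beads and primed with random hexamers. The authors deposited 1 gene table of 14366 genes. Its values summed to between 997351 and 998844 per library and were taken, from the values, to be TPM made by the authors, so read depth is unknown. The table also holds the authors' log2 fold changes, p-values and adjusted p-values, deposited with no description. The tools STAR 2.7.11a, DESeq2 and DESeq and the build GRCm38 come, per the submitters' processing notes, without a stated role. No source used here names the quantifier, annotation or gene filter.

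Columns were matched to samples by the library names in the labels. The 12300 genes that reached 1 TPM in 3 or more libraries were kept. Groups were compared on log2(TPM + 1) by limma 3.58.1 (R 4.3.3, trended variances). Its p-values were two-sided and adjusted by the Benjamini-Hochberg method over all tested genes, and the model was tested on simulated data. In the simulation noise was drawn separately for each gene and library. It therefore held no shift shared by the genes of a library and cannot show how the calls fare under such a shift. Positions are from GENCODE release M21 (GRCm38) and upstream sequences from RefSeq (GRCm38.p6), where all 6 members matched by symbol and Igfbp2, with 2 windows, was shown at the gene's start. The members and gene lists were chosen with earlier results of these data known, so counts over a list are descriptions and no list was tested. Genes were named by a rule: all members, Gata2, each other gene of the Igf axis past the threshold or else the most abundant of its group, the most abundant marker and that with the lowest p of each cell type, and the 3 genes most like each member past the threshold. Alternatives changed the pseudocount, filter, scaling, variance trend, replicate block and the libraries included, and for scalings and removals the same genes were kept.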

Additional observations from a re-analysis of the deposited data

How the results depend on the processing

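Of 90 values of the 6 members under 15 alternatives each, 69 kept their direction and side of the threshold, 17 were no longer past it, 3 were newly past it and 1 changed sign. The count of members past the threshold was 1 with no filter on low values, with median-of-ratios scaling and with upper-quartile scaling, against 2 as reported. That member was Igfbp2. The count was also 1 with mitochondrial genes left out of the total and with the replicate block. There the member was Igfbp3, which was lower, and neither Igfbp2 nor Igfbp5 passed. The count of members was 0 to 3 over the removals of a library. The count of all changed genes was 116 to 1539 over the removals (116 without Gata2cKO replicate 1 and 1539 without control replicate 1), against 919. The count of other Igf axis genes, Mmp7 included, was 3 to 10 over the removals, 2 with a filter of 5 TPM and 3 with mitochondrial genes left out of the total, against 5. The stricter filter tested 20 of the 30 genes, and for the other changes the cause was not tested.

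Replicate numbers are shared between the groups in the labels, but deviations from the group means correlated at 0.245, -0.073 and 0.038 for numbers 1, 2 and 3, and 1 of the 3 Gata2cKO samples correlated best with its own number, so the numbers were not taken to pair the samples. With the replicate block 774 genes passed, Igfbp3 passed (adjusted p = 0.0416) and Igfbp2 (0.0566) and Igfbp5 (0.0750) did not. Over the removals the log2 fold change changed sign for Igfbp4 (-0.18 to 0.064), Gata2 (-0.14 to 0.11), Col1a1 (-0.035 to 0.24) and Hba-a1 (-0.17 to 0.49), none of which passed in any removal. Depth is unknown, so counting error cannot be separated from the spread between replicates.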

Other observations

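Igfbp1, the remaining gene of the family and a neighbour of Igfbp3 on chromosome 11 (3539 bases away), was not a member and was chosen after its values were seen. It was near the floor, at 1.86, 3.79 and 3.30 TPM in Gata2cKO replicates 1 to 3 and 1.52, 0.955 and 2.73 TPM in control replicates 1 to 3. Its groups overlapped (log2 fold change 0.56, limma adjusted p = 0.224). Igfbp1 and Igfbp3 therefore had log2 fold changes of opposite sign, and neither passed.

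Pappa2, a secreted protease known to cut Igfbp3 and Igfbp5, was left out by the filter on low values and is named after its values were seen. It had 1.16, 1.32 and 0.774 TPM in Gata2cKO and 0.608, 0.474 and 0.417 TPM in controls. The groups did not overlap, and the authors' deposited table gives a log2 fold change of 1.05 with an adjusted p of 4.91e-06. Pappa, which cuts Igfbp4, stood at 0.283, 0.267 and 0.290 TPM in Gata2cKO and 0.302, 0.300 and 0.215 TPM in controls, and was also left out by the filter.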
